A study of Arabidopsis thaliana with 12 samples.

Results

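The 45 genes described here are nuclear genes of Arabidopsis thaliana that encode the light-harvesting antennae, photosystem subunits and the small subunit of Rubisco. They were taken by gene identifier from the 31837 gene records of the deposited expression table, and all 45 had a value above 0 in all 4 genotypes. They fell into 6 antenna genes of photosystem I (LHCI), 14 antenna genes of photosystem II (LHCII), 12 subunit genes of photosystem I (PSI), 9 subunit genes of photosystem II (PSII) and 4 Rubisco small subunit genes (RBCS). RNA sequencing was done on total RNA from whole seedlings of the Col-0 ecotype grown for 14 days in long days. The 12 libraries came from 4 genotypes with 3 libraries each: brm-1 brd1,2,13, in which all 4 genes are mutated (the combined mutant), a brm-1 mutant with intact BRD genes, a brd1,2,13 mutant with intact BRM, and the wild type (WT). BRM is the ATPase of a class of SWI/SNF chromatin remodelling complexes, which use ATP to move nucleosomes, and BRD1, BRD2 and BRD13 are bromodomain proteins of these complexes. The labels name the mutated genes and, apart from brm-1, no allele. As a check of the labels, BRM was at 0.120 FPKM in the combined mutant, 0.0954 in brm-1, 18.5 in brd1,2,13 and 17.5 in WT. BRD1, BRD2 and BRD13 were each lower by at least 1.5-fold in the combined mutant and brd1,2,13 than in WT, and BRD2 was at 22.5 FPKM in brm-1, against 7.04 in WT.

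Levels are in FPKM (mapped fragments per kilobase of transcript, scaled for sequencing depth), with 1 value per genotype over its 3 libraries. No value per library was used, so the spread between libraries is not known, no test was made, and whether the libraries of the genotypes overlap cannot be said for any gene. The depth of the libraries is likewise unknown. Differences are log2 ratios of FPKM with no pseudocount, and a gene is said to have risen or fallen where the ratio reached 1.5-fold (0.585 on the log2 scale) and the higher genotype had at least 1 FPKM, a floor that all 45 genes passed in every comparison. Smaller differences are given as values only. Since RNA came from whole seedlings, fewer cells of a type and less RNA per cell cannot be told apart.

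In the thylakoid membrane, photosystem II splits water and passes electrons through the cytochrome b6f complex to photosystem I, which reduces ferredoxin. Each photosystem is surrounded by chlorophyll-binding antenna proteins, encoded by LHCA genes for photosystem I and LHCB genes for photosystem II, and LHCB1 and LHCB2 form the major LHCII trimers. Rubisco fixes CO2 in the stroma, with small subunits from nuclear RBCS genes and large subunits from the chloroplast genome. The nuclear genes of this group are known to be induced together by light, and the GARP transcription factors GLK1 and GLK2 are known activators of many of the antenna genes.

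The regions upstream of the genes on which the comparisons turn are shown first, each as the 250 bases before the gene start of the RefSeq annotation (TAIR10.1 build), read 5′ to 3′ on the strand of the gene. LHCB2.1, LHCB2.2 and LHCB2.3 are the copies of the trimer gene LHCB2, LHCB1.4 and LHCB1.5 are neighbouring LHCB1 copies with ratios to WT of opposite sign, and RBCS2B is the RBCS copy that differed most. Capitals mark, on either strand, the G-box CACGTG, the I-box GATAAG and the letters CCAATC, elements known from light-regulated plant promoters. The windows are chr2:1824481-1824730 on the minus strand for LHCB2.1, chr2:1800473-1800722 on the minus strand for LHCB2.2, chr3:10255656-10255905 on the plus strand for LHCB2.3, chr2:14524357-14524606 on the plus strand for LHCB1.4, chr2:14523569-14523818 on the minus strand for LHCB1.5 and chr5:15382072-15382321 on the minus strand for RBCS2B.
LHCB2.1: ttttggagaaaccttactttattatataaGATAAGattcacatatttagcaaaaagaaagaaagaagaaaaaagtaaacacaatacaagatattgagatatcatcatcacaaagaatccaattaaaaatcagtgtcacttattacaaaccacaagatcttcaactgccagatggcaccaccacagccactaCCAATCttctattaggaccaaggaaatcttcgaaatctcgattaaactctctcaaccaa
LHCB2.2: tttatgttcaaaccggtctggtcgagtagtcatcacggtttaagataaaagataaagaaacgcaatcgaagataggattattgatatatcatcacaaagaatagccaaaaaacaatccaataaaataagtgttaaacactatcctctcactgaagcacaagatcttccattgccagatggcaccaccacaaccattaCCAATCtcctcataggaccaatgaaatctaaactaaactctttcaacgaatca
LHCB2.3: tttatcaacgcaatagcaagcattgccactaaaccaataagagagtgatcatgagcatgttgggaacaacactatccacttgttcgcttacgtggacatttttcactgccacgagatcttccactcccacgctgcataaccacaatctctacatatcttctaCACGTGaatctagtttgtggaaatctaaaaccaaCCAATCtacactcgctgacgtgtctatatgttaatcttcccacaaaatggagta
LHCB1.4: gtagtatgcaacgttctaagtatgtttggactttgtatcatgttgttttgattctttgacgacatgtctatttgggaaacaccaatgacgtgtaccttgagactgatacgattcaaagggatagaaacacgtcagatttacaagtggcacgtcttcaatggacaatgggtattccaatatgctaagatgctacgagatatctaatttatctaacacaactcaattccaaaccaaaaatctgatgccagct
LHCB1.5: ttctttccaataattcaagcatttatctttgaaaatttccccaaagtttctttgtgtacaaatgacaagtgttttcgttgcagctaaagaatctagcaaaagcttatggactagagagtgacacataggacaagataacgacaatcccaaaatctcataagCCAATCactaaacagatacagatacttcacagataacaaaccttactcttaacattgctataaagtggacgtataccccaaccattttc
RBCS2B: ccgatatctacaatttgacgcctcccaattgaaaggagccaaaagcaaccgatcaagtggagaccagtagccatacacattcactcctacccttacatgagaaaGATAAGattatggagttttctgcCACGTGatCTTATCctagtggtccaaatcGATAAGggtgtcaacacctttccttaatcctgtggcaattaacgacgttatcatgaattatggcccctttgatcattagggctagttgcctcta
In these windows CCAATC began 59, 53 and 54 bases before the start of LHCB2.1, LHCB2.2 and LHCB2.3 and 89 bases before that of LHCB1.5, and was not among the letters of the LHCB1.4 and RBCS2B windows. The RBCS2B window held 1 G-box and 3 I-boxes. These distances and absences hold for the RefSeq starts, which differ from those of the expression records by unequal amounts. The LHCB1.4 window ends at 14524606 and its expression record starts at 14524756, so the bases between were not searched. LHCB1.4 and LHCB1.5 are transcribed away from each other.

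The 45 genes were among the most abundant transcripts of the seedlings. Between 40 and 41 of them were in the 100 most abundant records of each genotype, and 42 had at least 500 FPKM in every genotype. Their summed FPKM was 15.5% of all FPKM in the combined mutant, 15.6% in brm-1, 17.1% in brd1,2,13 and 17.5% in WT. RBCS1A was the most abundant, with 15640.1 FPKM in the combined mutant, 16426 in brm-1, 15606 in brd1,2,13 and 16716 in WT. It was followed by the LHCII gene LHCB1.3, with 12288 FPKM in the combined mutant, 13086.5 in brm-1, 13099 in brd1,2,13 and 13378 in WT. These were the most abundant RBCS and LHCII genes, and their ratios to WT lay between -0.12 and -0.03 in the 3 mutants.

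In the other groups the most abundant genes lay lower. LHCA4, whose protein pairs with LHCA1 in the photosystem I antenna, led LHCI with 4893 FPKM in the combined mutant, 4890.1 in brm-1, 5813 in brd1,2,13 and 6042 in WT. PSBR, a small subunit near the water-splitting side of photosystem II, led PSII with 7714 FPKM in the combined mutant, 6566 in brm-1, 8265 in brd1,2,13 and 7990.0 in WT. PSAO, a small subunit of photosystem I, had 3236 FPKM in the combined mutant, 3115 in brm-1, 3718 in brd1,2,13 and 3530.5 in WT, the highest of PSI in WT. The least abundant was LHCB4.3, with 94.7 FPKM in the combined mutant, 100.1 in brm-1, 74.1 in brd1,2,13 and 70.6 in WT. LHCA6 had 109 FPKM in the combined mutant, 119 in brm-1, 141 in brd1,2,13 and 140.2 in WT, and LHCA5 had 198 in the combined mutant, 192 in brm-1, 216 in brd1,2,13 and 196 in WT. These 3 were the genes below 500 FPKM. FPKM is a level per length, so these genes can be ranked, but 10 of the 45 lay in records that joined several genes and their levels are those of the joined record.

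**Figure D1:**
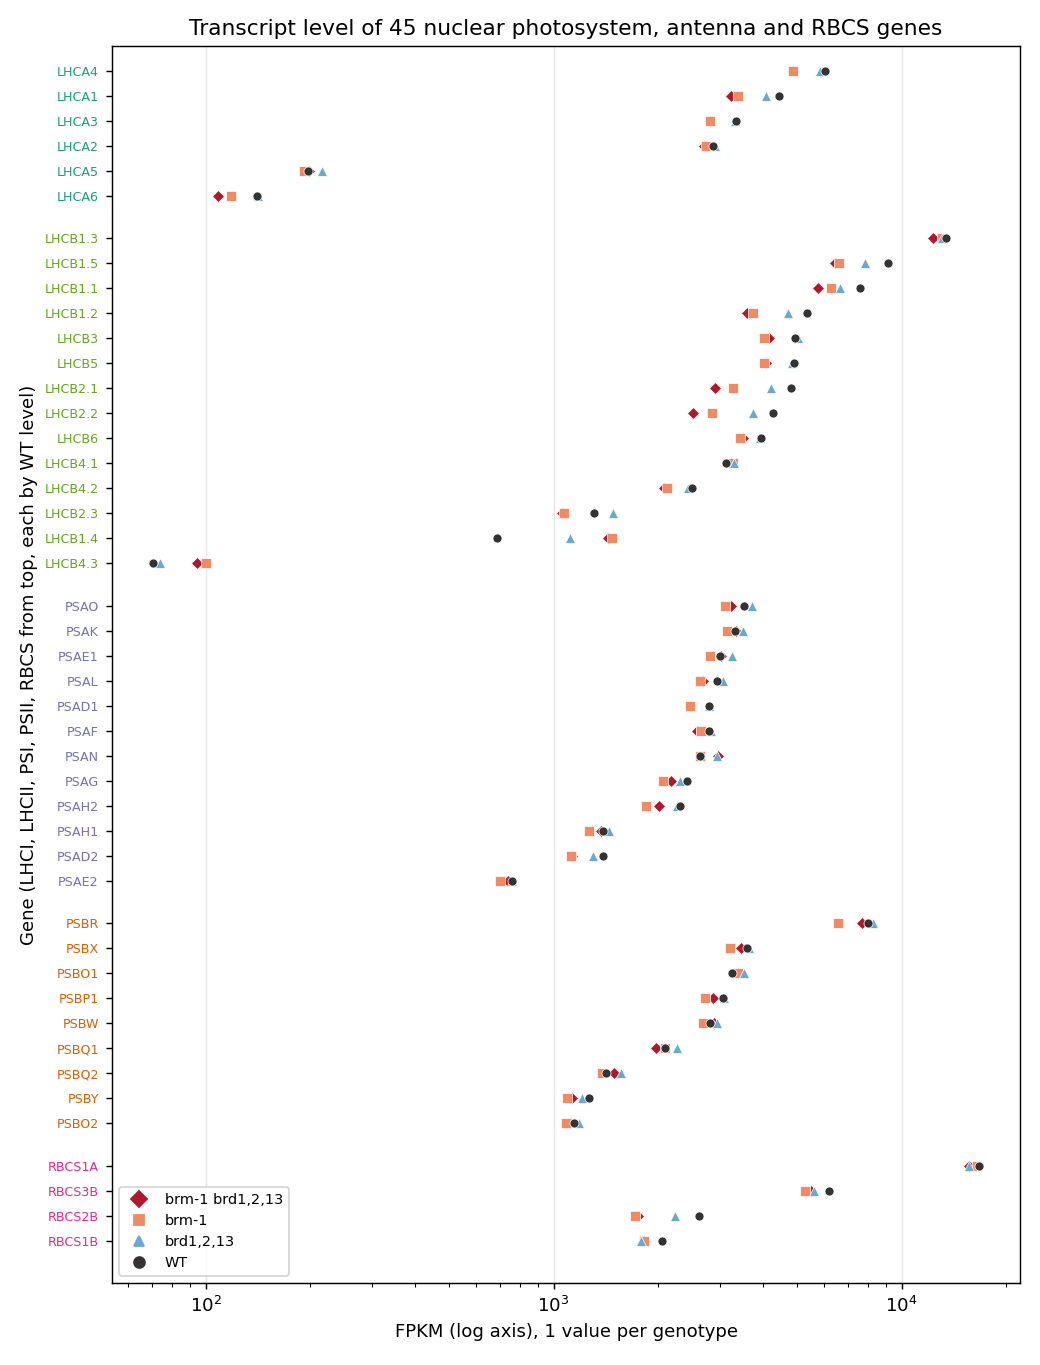
FPKM (log axis) of the 45 genes in the combined mutant, brm-1, brd1,2,13 and WT, 1 point per genotype, with genes grouped by complex from top to bottom and ordered by WT level; there are no error bars because each genotype has 1 value. For LHCB1.4 the WT point (687) lies left of the 3 mutant points (1112 to 1474), while for LHCB2.1 and LHCB2.2 the points of the combined mutant and brm-1 lie left of those of brd1,2,13 and WT.

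In brm-1 the antenna transcripts were lower than in WT by a modest amount and the photosystem subunits by less. Of the 45 genes, 40 had a lower value in brm-1 than in WT, against 50.3% of all 17947 records compared, and the median log2 ratio was -0.18, against -0.0027 for all records. The size was small for nearly all of them: 1 gene, RBCS2B, fell at least 1.5-fold and 1 gene, LHCB1.4, rose, where 12.0% of all records fell and 12.8% rose. With FPKM divided by the upper quartile of each genotype, 2 genes fell, and the share of all records was not computed at that scaling. By group, the median ratio was -0.28 for LHCII, -0.24 for LHCI, -0.20 for RBCS, -0.15 for PSI and -0.08 for PSII. Among the other 245 records with at least 500 FPKM, 60% were lower and the median was -0.04, against -0.18 for the 42 genes at that level. Of those 245 records, 5.31% fell 1.5-fold, a smaller share than of all records.

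Within LHCII, LHCB2.2 and LHCB2.1 had the lowest ratios in brm-1. LHCB2.2 (AT2G05070, TAIR10 chromosome 2, 1799234 to 1800392) was at 2859.9 FPKM in brm-1 and 4274 in WT, a log2 ratio of -0.58 just short of 1.5-fold. LHCB2.1 (AT2G05100, chromosome 2, 1823240 to 1824425) was at 3270.3 FPKM in brm-1 and 4807 in WT (-0.56). The third copy, LHCB2.3 (AT3G27690, chromosome 3, 10255947 to 10257011), was at 1074 FPKM in brm-1 and 1305 in WT (-0.28). All 3 copies were thus lower in brm-1, and their sum was 7205 FPKM in brm-1 and 10386 in WT (-0.53).

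The LHCB1 copies, which encode the other trimer protein, had ratios of both signs. LHCB1.2 was at 3738 FPKM in brm-1 and 5347 in WT (-0.52). LHCB1.5 (AT2G34420, chromosome 2, 14518369 to 14523753) was at 6608 FPKM in brm-1 and 9171 in WT (-0.47), and LHCB1.1 at 6256 FPKM in brm-1 and 7579 in WT (-0.28). LHCB1.4 (AT2G34430, chromosome 2, 14524756 to 14525763), the neighbour of LHCB1.5, rose to 1474 FPKM in brm-1, against 687 in WT (1.102). Summed over the 5 copies, LHCB1 was at 31161 FPKM in brm-1 and 36162 in WT (-0.21).

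LHCB3 and the monomeric antennae differed among themselves. LHCB3, which replaces an LHCB1 or LHCB2 subunit in some trimers, was at 4021 FPKM in brm-1 and 4948 in WT (-0.30), and the monomeric antenna LHCB5 (CP26) at 4032 FPKM in brm-1 and 4908 in WT (-0.28). LHCB6 (CP24) was at 3428 FPKM in brm-1 and 3943 in WT (-0.20). Of the copies of LHCB4 (CP29), LHCB4.2 was at 2124 FPKM in brm-1 and 2494 in WT (-0.23), LHCB4.1 at 3289 FPKM in brm-1 and 3139 in WT (0.07) and the low-abundance LHCB4.3 at 100.1 FPKM in brm-1 and 70.6 in WT (0.50). The antenna genes with a higher value in brm-1 than in WT were therefore LHCB1.4, LHCB4.3 and LHCB4.1.

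All 6 LHCI genes were lower in brm-1 than in WT, between -0.39 and -0.04, and none reached 1.5-fold. LHCA1 was at 3396 FPKM in brm-1 and 4439 in WT (-0.39). LHCA4 was at 4890.1 FPKM in brm-1 and 6042 in WT (-0.31), and LHCA3 at 2817 FPKM in brm-1 and 3343 in WT (-0.25). LHCA2, LHCA5 and LHCA6 had ratios of -0.06, -0.04 and -0.24. The 2 genes with the lowest ratios thus encode the partners of the LHCA1 and LHCA4 dimer.

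The photosystem subunits were closer to WT. In PSI, 11 of 12 genes were lower, from -0.32 for PSAH2, a subunit at the docking site of mobile LHCII, to 0.01 for PSAN, a lumenal subunit at 2644 FPKM in brm-1 and 2629 in WT. In PSII, 8 of 9 genes were lower, from -0.28 for PSBR (6566 FPKM in brm-1 and 7990.0 in WT) to 0.05 for PSBO1 (3382 FPKM in brm-1 and 3261 in WT), the main manganese-stabilising protein of the water-splitting complex. PSBQ1 and PSBQ2, which encode another extrinsic protein of that complex, had ratios of -0.0027 and -0.03, and PSBP1 had -0.17. No gene of either core reached 1.5-fold in any of the 5 comparisons.

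All 4 RBCS genes were lower in brm-1, by unequal amounts. RBCS2B (AT5G38420, chromosome 5, 15380945 to 15382035) fell to 1718 FPKM in brm-1, against 2622 in WT (-0.61). RBCS3B was at 5283 FPKM in brm-1 and 6202 in WT (-0.23), RBCS1B at 1819.9 FPKM in brm-1 and 2046 in WT (-0.17), and RBCS1A at 16426 FPKM in brm-1 and 16716 in WT (-0.03). RBCS2B, RBCS3B and RBCS1B lie side by side on chromosome 5, and RBCS1A is on chromosome 1. The sum of the 4 was 25247 FPKM in brm-1 and 27587 in WT (-0.13).

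**Figure D2:**
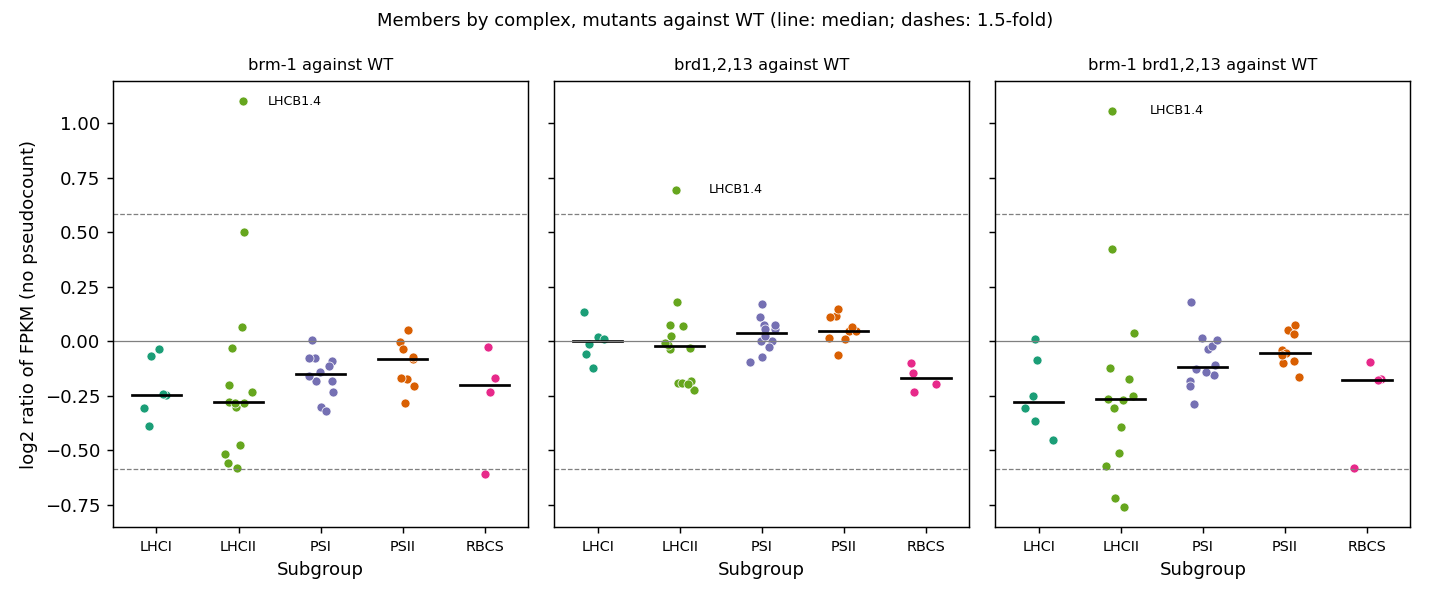
Log2 ratios of FPKM of the 45 genes in brm-1, brd1,2,13 and the combined mutant, each against WT, 1 point per gene by complex, with black lines at the group medians and dashed lines at 1.5-fold in either direction. LHCII spreads most, from -0.58 to 1.102 in brm-1 and from -0.76 to 1.06 in the combined mutant, and PSI and PSII stay within the dashed lines in all 3 panels.

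In brd1,2,13 the group as a whole was close to WT. Of the 45 genes, 20 were lower and 25 higher than in WT, against 48.7% of 17849 records lower, and the median ratio was 0.0093, against 0.0072 for all records. The split depends on scaling: with the upper-quartile scaling, 26 of the 45 were lower and the median was -0.013. No gene fell 1.5-fold, where 4.36% of all records did, and LHCB1.4 rose to 1112 FPKM in brd1,2,13, against 687 in WT (0.70), where 6.89% of all records rose. The other 217 records with at least 500 FPKM had a median of -0.07 with 64.5% lower, against 0.00 for the 42 genes. Of those 217 records, 1.84% fell 1.5-fold.

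By group, the median in brd1,2,13 was 0.00 for LHCI, -0.02 for LHCII, 0.04 for PSI, 0.05 for PSII and -0.17 for RBCS. All 4 RBCS genes were lower, between -0.23 for RBCS2B (2231 FPKM in brd1,2,13 and 2622 in WT) and -0.10 for RBCS1A. In LHCII, the 4 LHCB1 copies other than LHCB1.4 and the pair LHCB2.1 and LHCB2.2 were all lower, between -0.22 and -0.03. LHCB2.1 was at 4214 FPKM in brd1,2,13 and 4807 in WT, and LHCB1.5 at 7870.4 FPKM in brd1,2,13 and 9171 in WT. LHCB2.3 had the reverse sign, at 1478 FPKM in brd1,2,13 and 1305 in WT (0.18). Among core subunits the highest was PSAN, at 2959 FPKM in brd1,2,13 and 2629 in WT (0.17).

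In the combined mutant most antenna genes were lower than in WT and the core subunits varied in sign. Of the 45 genes, 35 were lower, against 49.1% of 17970 records, with a median of -0.14, against 0.01 for all records. The pair LHCB2.2 and LHCB2.1 fell at least 1.5-fold and LHCB1.4 rose, where 14.2% of all records fell and 15.3% rose. With FPKM divided by the upper quartile, 40 of the 45 were lower and 4 fell at least 1.5-fold, with no share of all records computed at that scaling. The medians were -0.28 for LHCI, -0.27 for LHCII, -0.18 for RBCS, -0.12 for PSI and -0.05 for PSII, and the PSI median was 0.0067 over the 5 PSI genes in records of 1 gene without overlap. The other 245 records with at least 500 FPKM had a median of -0.11 with 61.2% lower, against -0.15 for the 42 genes, a smaller gap than in brm-1. Of those 245 records, 7.35% fell 1.5-fold.

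LHCB2.2 fell to 2524 FPKM in the combined mutant, against 4274 in WT (-0.76), and LHCB2.1 fell to 2919 FPKM, against 4807 in WT (-0.72). RBCS2B, at 1753 FPKM in the combined mutant and 2622 in WT (-0.58), and LHCB1.2, at 3604 FPKM in the combined mutant and 5347 in WT (-0.57), lay just short of 1.5-fold. LHCB1.4 rose to 1431 FPKM, against 687 in WT (1.06). LHCB4.3 was at 94.7 FPKM in the combined mutant and 70.6 in WT (0.42) and PSAN at 2978 FPKM in the combined mutant and 2629 in WT (0.18). The comparisons of the 3 mutants with WT share the WT values, so they are not independent of each other.

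The combined mutant was also set against each of the other mutants. Against brm-1, 20 of the 45 genes were lower, where 48.8% of 17724 records were, and the median was 0.0098, or -0.0089 with the upper-quartile scaling. None fell or rose 1.5-fold, where 2.06% of records fell and 2.60% rose, and 0 of 231 others with at least 500 FPKM fell. The lowest were LHCB2.2, at 2524 FPKM in the combined mutant and 2859.9 in brm-1 (-0.18), LHCB2.1, at 2919 FPKM in the combined mutant and 3270.3 in brm-1 (-0.16), and LHCA6, at 109 FPKM in the combined mutant and 119 in brm-1 (-0.12). The highest were PSBR, at 7714 FPKM in the combined mutant and 6566 in brm-1 (0.23), PSAN, at 2978 FPKM in the combined mutant and 2644 in brm-1 (0.17), and PSAH2, at 2006 FPKM in the combined mutant and 1847 in brm-1 (0.12). Of the 12 PSI genes 11 were higher and of the 9 PSII genes 7 were, while 11 of the 14 LHCII genes were lower, all by small amounts.

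Against brd1,2,13, 40 of the 45 genes were lower in the combined mutant, where 50.4% of 17975 records were, with a median of -0.13. None fell or rose 1.5-fold, where 12.2% of records fell and 10.9% rose, and 3.93% of 229 others with at least 500 FPKM fell. The lowest were LHCB2.2, at 2524 FPKM in the combined mutant and 3731 in brd1,2,13 (-0.56), LHCB2.1, at 2919 FPKM in the combined mutant and 4214 in brd1,2,13 (-0.53), and LHCB2.3, at 1057 FPKM in the combined mutant and 1478 in brd1,2,13 (-0.48). The highest were LHCB1.4, at 1431 FPKM in the combined mutant and 1112 in brd1,2,13 (0.36), LHCB4.3, at 94.7 FPKM in the combined mutant and 74.1 in brd1,2,13 (0.35), and RBCS1B, at 1814 FPKM in the combined mutant and 1789.8 in brd1,2,13 (0.02). The medians were -0.24 for LHCI, -0.24 for LHCII, -0.12 for PSI, -0.08 for PSII and -0.02 for RBCS.

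The 4 genotypes form a factorial design, in which the loss of BRM can be read from 2 ratios that share no genotype, as brm-1 against WT and as the combined mutant against brd1,2,13. The genes took similar values in both: 38 were lower in both ratios, 3 higher in both (LHCB1.4, LHCB4.3 and PSAN) and 4 of opposite sign. Across the 45 genes Pearson's r was 0.85 and Spearman's rho 0.79, and without LHCB1.4 r was 0.85, given as a description since members of a gene family share sequence and reads. The ratios differed in the median by 0.06. The widest gaps were those of LHCB1.4, with 1.102 for brm-1 against WT and 0.36 for the combined mutant against brd1,2,13, and of RBCS2B, with -0.61 and -0.35. Within LHCII r was 0.93 and within LHCI 0.82, while within PSII, whose ratios spanned little, it was -0.03. Within RBCS r was 0.95 over 4 genes, but 2 were lower in both ratios and 2 of opposite sign. The RBCS ratios differed in the median by 0.19, with group medians of -0.20 for brm-1 against WT and -0.02 for the combined mutant against brd1,2,13.

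The loss of the BRD genes can be read in the same way, as brd1,2,13 against WT and as the combined mutant against brm-1. Here 11 genes were lower in both ratios, 16 higher in both and 18 of opposite sign. Across the 45 genes r was 0.26 and rho 0.35, and r was 0.46 without LHCB1.4. For each gene the gap between these ratios equals that between its BRM-loss ratios, since both use the same values (median gap 0.06). The ratios spread less, with standard deviations of 0.15 and 0.085, against 0.27 and 0.18 for the loss of BRM. The lower r and rho therefore do not show that the loss of the BRD genes repeated less well. LHCB2.1 and LHCB2.2 were lower in both, with -0.19 and -0.20 for brd1,2,13 against WT and -0.16 and -0.18 for the combined mutant against brm-1. PSAN was higher in both, at 0.17 each. LHCB1.4 was higher by 0.70 where BRM was intact and had a ratio of -0.04 in the brm-1 background, so its value in the combined mutant (1431 FPKM) was close to that in brm-1 (1474 FPKM).

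**Figure D3:**
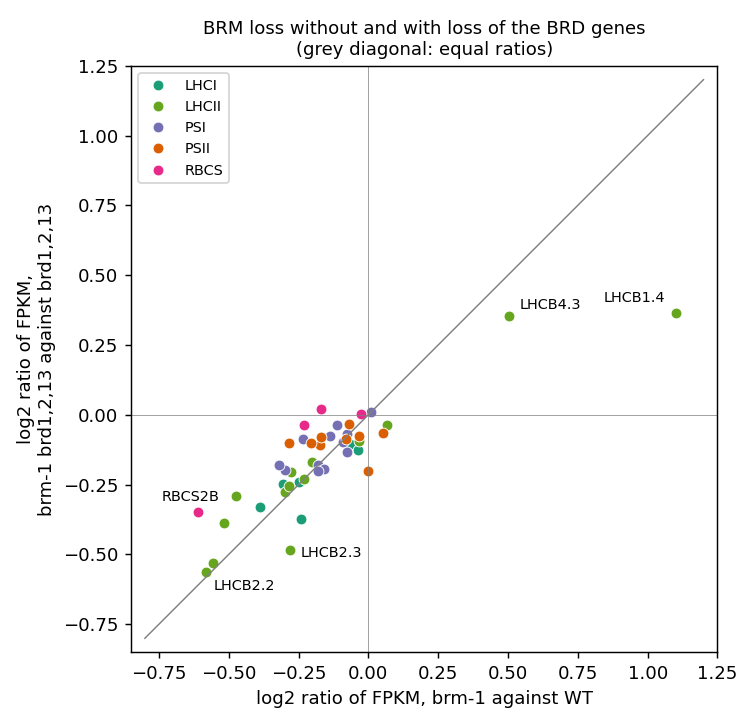
Log2 ratio of FPKM of brm-1 against WT (x axis) and of the combined mutant against brd1,2,13 (y axis) for the 45 genes, 1 point per gene coloured by complex, with a grey diagonal where the ratios are equal. Most points lie near the diagonal at negative values of both ratios, with LHCB2.2 lowest on the y axis at -0.56 and LHCB1.4 far below the diagonal at 1.102 and 0.36.

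The make-up of the gene families was compared between genotypes, since copies of a family encode nearly the same protein. LHCB1.4 made up 4.85% of the summed LHCB1 FPKM in the combined mutant, 4.73% in brm-1, 3.33% in brd1,2,13 and 1.90% in WT. LHCB1.3 made up 41.6% in the combined mutant, 42.0% in brm-1, 39.2% in brd1,2,13 and 37.0% in WT. LHCB1.5 made up 21.8% in the combined mutant, 21.2% in brm-1, 23.5% in brd1,2,13 and 25.4% in WT. In all 3 mutants the shares of LHCB1.3 and LHCB1.4 were thus above those in WT and the share of LHCB1.5 below it. In LHCB2, the share of LHCB2.3 was 16.3% in the combined mutant, 14.9% in brm-1, 15.7% in brd1,2,13 and 12.6% in WT. RBCS2B made up 7.10% of the summed RBCS FPKM in the combined mutant, 6.81% in brm-1, 8.84% in brd1,2,13 and 9.51% in WT.

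Core subunits encoded by pairs of copies were compared in the same way, and no copy reached 1.5-fold. PSAD1 and PSAD2, the ferredoxin-docking subunit of photosystem I, had ratios of -0.18 and -0.30 in brm-1 against WT. PSAE1 and PSAE2, another subunit of that docking site, had -0.09 and -0.11, and PSAH1 and PSAH2 had -0.14 and -0.32. PSBO1 and PSBO2 had 0.05 and -0.08. PSBO1 made up 75.2% of the PSBO sum in the combined mutant, 75.7% in brm-1, 74.9% in brd1,2,13 and 74.0% in WT, so PSBO1 was the major copy in all 4 genotypes. PSBQ1 made up 56.9% of the PSBQ sum in the combined mutant, 60.2% in brm-1, 59.0% in brd1,2,13 and 59.7% in WT. In the combined mutant against brm-1, PSBQ1 had a ratio of -0.09 and PSBQ2 of 0.11.

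Copies of high sequence identity limit what can be said of each. In their coding sequence LHCB1.1, LHCB1.2 and LHCB1.3 were 95.6% to 96.4% identical, LHCB1.4 and LHCB1.5 91.4%, LHCB2.1 and LHCB2.2 96.6%, and RBCS1B, RBCS2B and RBCS3B 96.7% to 97.3%. How reads that match several copies were divided was not stated in the sources, and the values of single LHCB1, LHCB2 and RBCS copies are therefore uncertain. LHCB1.4 was 86.8% identical to LHCB1.1 and LHCB1.3. With copies at 90% identity or more summed to 1 value, no family of the 37 so formed rose 1.5-fold in any mutant against WT, and the joined LHCB2.1 and LHCB2.2 were the family that fell 1.5-fold, in the combined mutant against WT.

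**Figure D4:**
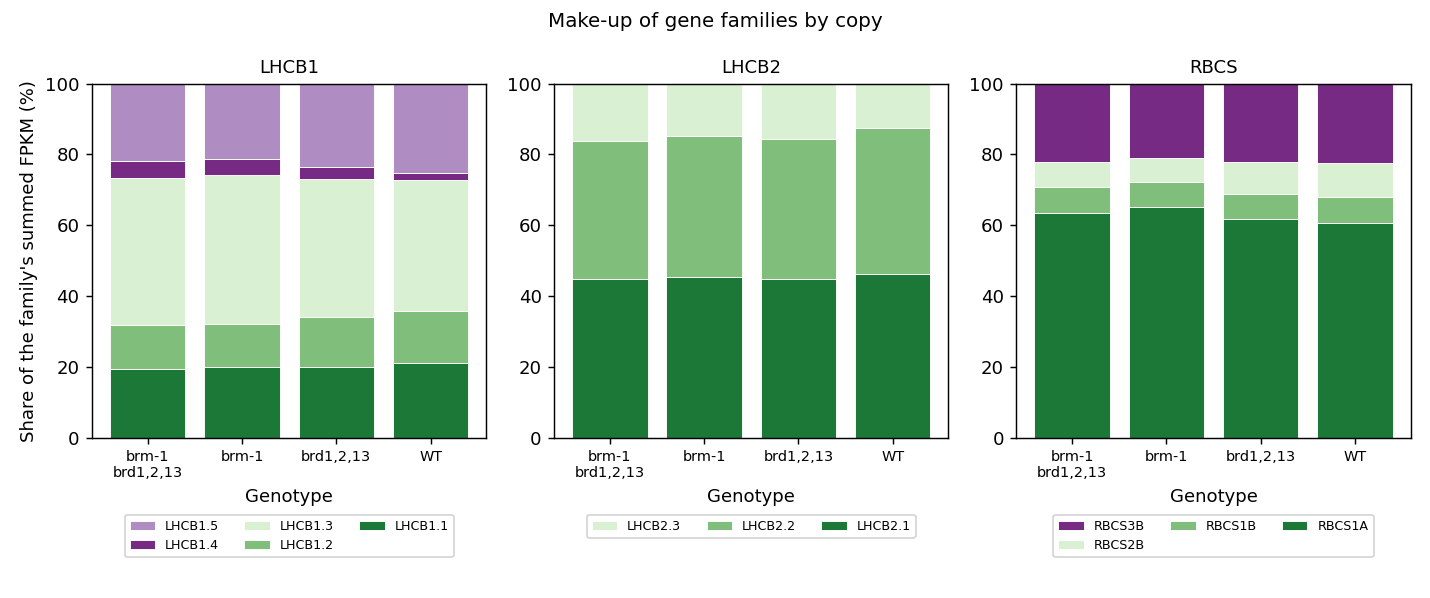
Share of each copy in the summed FPKM of its family (%, bars from 0 to 100) for LHCB1, LHCB2 and RBCS in the combined mutant, brm-1, brd1,2,13 and WT, 1 bar per genotype. The dark LHCB1.4 segment is thinnest in WT at 1.90% and reaches 4.85% in the combined mutant, while RBCS1A holds between 60.6% and 65.1% of RBCS in every genotype.

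The antenna sums were also set against the core sums within each genotype, where a scale factor common to all genes drops out. Summed LHCII FPKM was 2.05 times summed PSII FPKM in the combined mutant, 2.29 times in brm-1, 2.26 times in brd1,2,13 and 2.48 times in WT. Summed LHCI FPKM was 0.503 times summed PSI FPKM in the combined mutant, 0.534 times in brm-1, 0.545 times in brd1,2,13 and 0.581 times in WT. Both ratios were lowest in the combined mutant and highest in WT, with brm-1 and brd1,2,13 between. These are ratios of transcript levels, and no protein was measured.

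The upstream windows were searched for the same letters in all 45 genes. CCAATC occurred on either strand in 7 of 14 LHCII and 3 of 6 LHCI windows, in 1 of 9 PSII windows (PSBQ2) and in none of the 12 PSI and 4 RBCS windows, that is in 24.4% of the 45, against 10.2% of 27443 windows of protein-coding genes. The G-box occurred in 20% of the 45 windows and 6.49% of all, the I-box in 22.2% and 12.3%, and the short core GATA, which the I-box contains, in 93.3% and 87.0%. In brm-1 against WT the median ratio was -0.29 for the 10 antenna genes with CCAATC in the window and -0.22 for the 10 without. The windows were set by RefSeq gene starts, which differ from those of the expression records by unequal amounts. These counts, with the absence of CCAATC from the RBCS windows, therefore depend on the annotation. A match of letters is not a binding site, and no binding data were used.

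Other genes of photosynthesis were read beside the group. In the list of 13 genes of electron transport and the ATP synthase, the median was -0.19 in brm-1 against WT, -0.04 in brd1,2,13 and -0.17 in the combined mutant, close to those of the 45 genes. PGRL1A, of cyclic electron flow, fell to 337 FPKM in brm-1, against 528 in WT (-0.65). FD1, a ferredoxin, fell to 1038 FPKM in the combined mutant, against 1728 in WT (-0.74). Of the 13, 1 fell in brm-1, 0 in brd1,2,13 and 1 in the combined mutant against WT. Of all records, 12.0%, 4.36% and 14.2% did, in that order. The highest in this list was LFNR1, a ferredoxin-NADP reductase, with 0.29 for brm-1 and 0.36 for the combined mutant against WT. LFNR1, and PGK1 named below, lay in records that joined 2 genes. None of 14 Calvin cycle genes fell or rose 1.5-fold in any comparison, with medians of -0.13 in brm-1, -0.03 in brd1,2,13 and -0.15 in the combined mutant, each against WT. In brm-1 the lowest of them was FBA2, an aldolase, at 2411 FPKM in brm-1 and 3493 in WT (-0.54), and the highest PGK1, a phosphoglycerate kinase, at 881 FPKM in brm-1 and 674 in WT (0.39), and in the combined mutant the lowest was another aldolase gene, FBA1, with -0.56 against WT.

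Several genes of a list of photosynthesis regulators, which includes plastid sigma factors, were lower in the mutants that lack BRM. Of 12 listed regulators, 6 fell 1.5-fold in brm-1, 0 in brd1,2,13 and 7 in the combined mutant, each against WT, and 7 fell in the combined mutant against brd1,2,13, while none rose. Over all records 12.0% fell in brm-1, 4.36% in brd1,2,13 and 14.2% in the combined mutant against WT, and 12.2% in the combined mutant against brd1,2,13. GUN1 and SIG6 had ratios of 0.03 in brm-1 and GUN5 of -0.11. GLK2 fell to 39.2 FPKM in the combined mutant and 50.3 FPKM in brm-1, where brd1,2,13 had 123 and WT 160.3, a ratio of -1.67 for brm-1. GLK1 fell to 44.6 FPKM in the combined mutant and 57.1 FPKM in brm-1, where brd1,2,13 had 115 and WT 125 (-1.13 for brm-1). The other regulators that fell in brm-1 were the GATA factors CGA1 (-1.06) and GNC (-0.87), the plastid sigma factor SIG5 (-1.03) and the bZIP factor HYH (-0.62), and GUN4, which activates chlorophyll synthesis, fell in the combined mutant (-0.78). The highest was the sigma factor SIG2, at 0.27 in brm-1 and 0.34 in brd1,2,13. SIG2 and HYH lay in records that joined 2 genes. Like the other lists, this one was chosen with earlier results of these data known. Its counts beside the share of all records are thus a description and not an independent comparison. How far the regulators bear on the 45 genes was not tested.

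**Figure D5:**
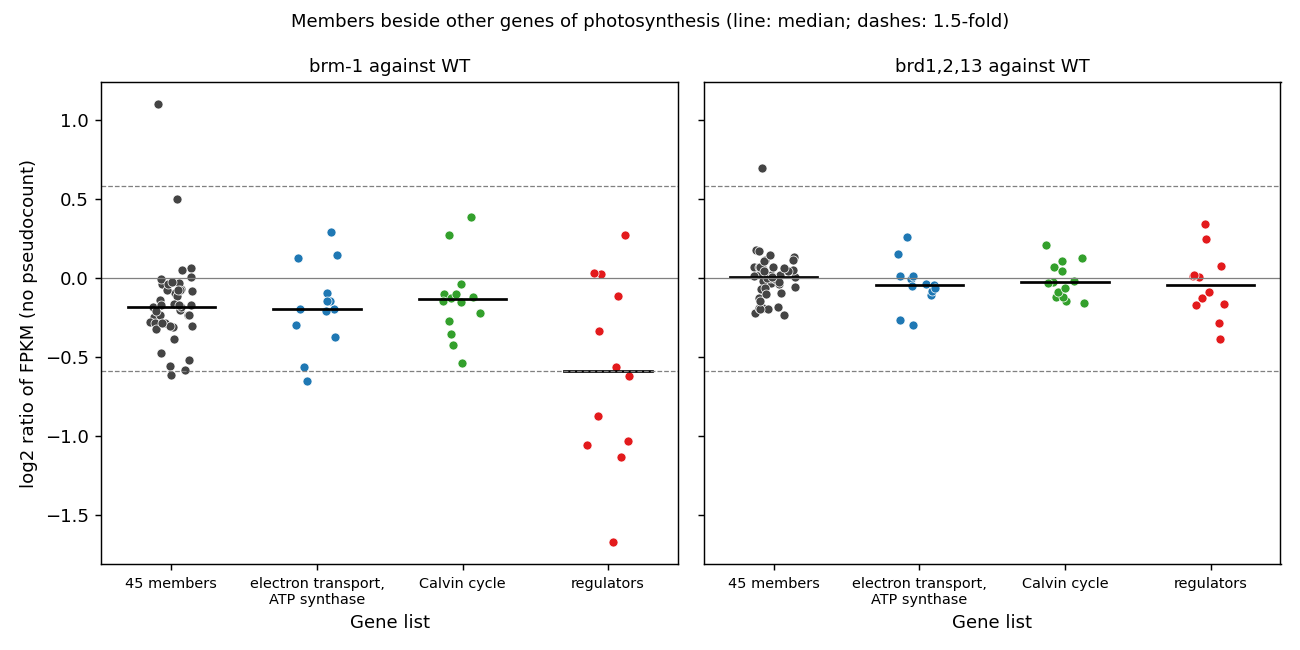
Log2 ratios of FPKM in brm-1 and in brd1,2,13, each against WT, for the 45 genes, 13 genes of electron transport and the ATP synthase, 14 Calvin cycle genes and 12 regulators, 1 point per gene, with black lines at the medians and dashed lines at 1.5-fold. In brm-1 the regulators reach -1.67 with a median of -0.59, against a median of -0.18 for the 45 genes, and in brd1,2,13 no regulator passes the dashed lines.

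Markers of other tissue moved with the genotypes. Of 7 root markers, 4 fell 1.5-fold in brm-1, 4 in brd1,2,13 and 5 in the combined mutant, against WT, with medians of -0.63 in brm-1, -0.73 in brd1,2,13 and -0.83 in the combined mutant. Of all records, 12.0% fell in brm-1, 4.36% in brd1,2,13 and 14.2% in the combined mutant. In the same order, 12.8%, 6.89% and 15.3% rose. The summed level of the root markers was 48.7 FPKM in the combined mutant, 58.9 in brm-1, 55.2 in brd1,2,13 and 87.2 in WT. None of them was at 0 in any genotype. In brm-1 the lowest was CASP4 of the endodermis, with -1.09, and the highest the root auxin carrier gene PIN2, with 0.17. CASP4 lay near the floor, at 0.74 FPKM in the combined mutant, 0.96 in brm-1, 0.53 in brd1,2,13 and 2.05 in WT. Root markers were thus lower in brd1,2,13 too, where the median of the 45 genes was 0.01. Of 5 leaf senescence markers, SEN1 (2.49) and SAG13 (1.11) rose in brm-1 and NAC2 fell (-1.02), SAG13 alone rose in brd1,2,13 (1.11), and in the combined mutant SEN1 (2.65) and SAG13 (1.66) rose and NAC2 fell (-0.84). Their sum was 337 FPKM in the combined mutant, 293 in brm-1, 144 in brd1,2,13 and 120 in WT. SEN1 alone held 245, 219, 47.4 and 39.1 FPKM of it, in that order, so the markers did not rise together. SGR1 had ratios to WT of -0.15 in brm-1, 0.48 in brd1,2,13 and -0.15 in the combined mutant. SAG12, the marker most specific to senescent leaves, was listed at 0 in all 4 genotypes. The part of these tissue differences in the values of the 45 genes was not tested. None of 7 reference genes reached 1.5-fold in any comparison, the lowest being ACT7, with -0.53 for brm-1 and -0.58 for the combined mutant against WT, and the highest UBC21, with 0.36 for the combined mutant.

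The form of the records limits some members. Besides the 10 genes in records that join several genes (LHCB4.1, LHCB4.2, PSAD1, PSAD2, PSAG, PSAO, PSBP1, PSBQ2, PSBW and PSBX), the loci of LHCA4, LHCA5, LHCB1.2, LHCB1.3, LHCB1.5, LHCB3, LHCB6, PSAE2, PSAH1, PSAH2 and PSBR overlap another record, as do 5 of the 10, so 24 of the 45 stand in records of 1 gene without overlap. LHCB1.4, LHCB2.1, LHCB2.2, LHCB2.3 and RBCS2B are among the 24. With these 24 alone, the median of the PSI genes in the combined mutant against WT was 0.0067 in place of -0.12.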

How the data were processed

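Total RNA of whole 14-day-old seedlings was sequenced in 12 libraries, 3 per genotype. Per the submitters' processing notes, reads were handled with TopHat (no version), then with version 2.1.1 of both Cufflinks and Cuffdiff, and the genome was TAIR10. The sources used here do not state how strand was handled: reads of a gene and of an overlapping antisense gene cannot be separated. The authors deposited a Cuffdiff gene table of 191022 rows, 31837 records in 6 pairs of genotypes, with FPKM computed by the authors as 1 value per genotype over its libraries. Its log2 fold changes, test statistics, p and q values are the authors' own comparisons and were not used. The labels do not say whether the libraries came from separate plantings.

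Ratios, medians, sums and shares were computed from the FPKM values with Python 3.11.15, pandas 2.3.3, numpy 2.4.6 and scipy 1.17.1, and checked on simulated data. With 1 value per genotype no test was possible. Changes of at least 1.5-fold with at least 1 FPKM in the higher genotype were counted in 5 comparisons and set beside the share of all records that passed the same rule. Full values were given for the 3 lowest and 3 highest genes of each comparison, for copies of a subunit and for the most abundant gene of each group, and from 9 other lists of 79 genes for the lowest, the highest and those past 1.5-fold. The 45 genes and the lists were chosen with earlier results of these data known. Alternatives were another fold, floor, pseudocount, scaling and summary, summed near-identical copies, and records of 1 gene without overlap. Upstream windows and coding sequences came from RefSeq (TAIR10.1) by gene identifier and were compared with Biopython 1.88. All 23213 records of 1 gene that were found there overlapped the RefSeq gene of the same identifier, but 3064 had the same start and end, so gene positions in the text were read from the table, with starts counted from 1.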

Additional observations from a re-analysis of the deposited data

How the results depend on the processing

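Across 40 results, 240 alternative values were computed, of which 17 moved by more than the limit set (1.5 times for a count, 0.1 on the log2 scale for a median). Counts followed the fold chosen. The share of all records was computed for the counts as reported alone, so those of the alternatives cannot be set beside it. At a lower limit, a ratio of 5 to 4, 6 genes were lower and 2 higher in brm-1 against WT, 8 lower and 2 higher in the combined mutant against WT, and 7 lower and 2 higher in the combined mutant against brd1,2,13. At 2-fold, 0 genes were lower in brm-1 or the combined mutant and 0 higher in brd1,2,13, each against WT. With FPKM divided by the upper quartile, 2 genes were lower for brm-1 and 4 for the combined mutant against WT. With near-identical copies summed, 0 were lower for brm-1 and 1 for the combined mutant, and 0 were higher in brm-1, brd1,2,13 or the combined mutant, against WT. Of 140 alternative medians, 1 moved past its limit and changed sign, that of PSI in the combined mutant against WT, at 0.0067 with records of 1 gene without overlap (-0.12 as reported). The sign changed in 7 alternatives in all, the other 6 of medians near 0. For the 45 genes in brd1,2,13 against WT (0.0093) it was -0.0127 with the upper quartile, and in the combined mutant against brm-1 (0.0098) it was -0.0089 with the upper quartile and -0.0131 with records of 1 gene without overlap. For LHCI in brd1,2,13 against WT (0.0005) it was -0.0478 with summed FPKM and -0.0067 with ratios centred on all records, and for RBCS in the combined mutant against brm-1 (0.0124) it was -0.0322 with summed FPKM. No paired analysis was possible because the table holds 1 value per genotype and its columns carry no replicate numbers, and for the same reason no library could be left out. Depth is unknown, so no limit from counting is given.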

Other observations

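Some genes of the photosystems and antennae outside the group of 45 had ratios beyond the range of the group. Of 13 listed genes outside the group, 2 fell and 1 rose in brm-1 against WT. In brd1,2,13, 0 fell and 1 rose, and in the combined mutant 3 fell and 1 rose, each against WT. Of all records, 12.0% fell in brm-1, 4.36% in brd1,2,13 and 14.2% in the combined mutant. In the same order, 12.8%, 6.89% and 15.3% rose. ELIP1, an early light-induced protein of the chlorophyll-binding family known from high light, was at 59.2 FPKM in the combined mutant, 76.8 in brm-1, 165 in brd1,2,13 and 188 in WT, so it fell in the combined mutant (-1.67) and in brm-1 (-1.29), each against WT. ELIP2 was at 92.7 FPKM in the combined mutant, 171 in brm-1, 217 in brd1,2,13 and 263 in WT, and fell against WT in the combined mutant (-1.50) and in brm-1 (-0.62), with -0.88 for the combined mutant against brm-1. PSBS, the photosystem II protein of rapid photoprotection, fell in the combined mutant to 1340.1 FPKM, against 2029 in WT (-0.60). That ratio was within the range of the group. PSBP2, a low-abundance relative of PSBP1, rose to 8.17 FPKM in the combined mutant, 7.70 in brm-1 and 7.44 in brd1,2,13, against 3.02 in WT. Over these 13 genes the median was -0.18 in brm-1, 0.05 in brd1,2,13 and -0.16 in the combined mutant, against WT. LHCB7, another low-abundance antenna relative, fell to 14.8 FPKM in the combined mutant, against 25.1 in brd1,2,13 (-0.76). In that comparison 3 of the 13 fell, the others being ELIP1 (-1.48) and ELIP2 (-1.23), where 12.2% of all records did.

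Of 4 genes for the making and insertion of antenna proteins, CPSRP54, a subunit of the chloroplast signal recognition particle that guides antenna proteins to the thylakoid, rose to 118 FPKM in the combined mutant and 127 FPKM in brm-1, where brd1,2,13 had 98.5 and WT 73.8. Its ratio to WT was 0.68 in the combined mutant, 0.78 in brm-1 and 0.42 in brd1,2,13. It was the 1 gene of the 4 that rose, where 15.3% of all records rose in the combined mutant and 12.8% in brm-1. The membrane insertase ALB3 was the lowest of the 4, at -0.26 in brm-1 against WT. The medians of the 4 were 0.08 in brm-1, 0.05 in brd1,2,13 and 0.01 in the combined mutant against WT.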
